A study of Caenorhabditis elegans with 2 samples.

Results

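The DREAM complex genes of Caenorhabditis elegans were examined for binding of eGFP-LSY-2. The 8 genes, lin-9, lin-35, lin-37, lin-52, lin-53, lin-54, efl-1 and dpl-1, were taken by name from the Ensembl annotation of the WBcel235 assembly (ce11), and all 8 were found among its 19973 nuclear protein-coding genes. LSY-2 is a C2H2 zinc finger transcription factor known for the left/right identity of a pair of taste neurons (ASE). The chromatin came from strain OP240, collected as whole larvae of mixed sex at the L2 stage, with the genotype unc-119(ed3) III; wgIs240, in which the integrated transgene expresses the tagged LSY-2. Chromatin immunoprecipitation with sequencing (ChIP-seq) was done on 2 biological replicates of this single group. There was no second condition, so the data hold positions and levels but no contrast, and no test was applied. In whole larvae the cell types in which a region is bound cannot be told apart, and the bound protein was expressed from the transgene.

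DREAM is a conserved protein complex that represses transcription from promoters. An E2F and DP dimer (EFL-1 and DPL-1) and a pocket protein of the retinoblastoma family (LIN-35) join the MuvB core, whose worm subunits are LIN-9, LIN-37, LIN-52, LIN-53 and LIN-54. In worms the complex holds down cell cycle genes and, in somatic cells, germline genes. Most of its subunits are class B synthetic multivulva (synMuv) genes, which act redundantly with class A genes to limit vulval fates.

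A thresholded eGFP-LSY-2 region lay at 6 of the 8 DREAM genes, beside 14.0% of all nuclear protein-coding genes. Thresholded regions are those that passed the authors' limit on the irreproducible discovery rate (IDR), which asks how well the ranks of regions match between replicates. A region was counted for a gene when its summit, the position of highest signal, lay in the locus window, from 2 kb upstream of the annotated 5′ end to the 3′ end. Of the 2182 thresholded regions, 2154 held a summit of each replicate. Whether replicate regions overlapped the rest was not counted. In the promoter window, which spans 1000 bp upstream and 200 bp downstream of the 5′ end, 5 of the 8 DREAM genes had a thresholded summit, and 9.85% of all genes did. These 5 were lin-53, lin-9, lin-54, efl-1 and lin-35, and the summit counted for lin-37 lay farther upstream. In the gene bodies 0 of the 8 DREAM genes had one, beside 2.34% of all genes. The locus windows of the DREAM genes were 2668 to 9929 bp long, between percentiles 9.63 and 92.3 of the lengths over all genes, and the shortest was that of lin-52. A summit can lie in the windows of more than 1 gene. When each summit was given only to the gene with the nearest 5′ end, 3 of the 8 DREAM genes (efl-1, lin-35 and lin-9) kept one, beside 8.59% of all genes.

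The strength of the strongest region spanned a wide range among the DREAM genes. The signal of a region is the value that the authors' peak caller gave it, and it is read here within a list, since the lists were not put on the same scale. In the list for both replicates together the strongest region had a signal of 4074 at lin-53, 3225 at lin-9, 548 at lin-54, 197 at efl-1, 132 at lin-35 and 62.9 at lin-37. The median of the 2182 thresholded regions was 83.4, so that the first 5 of these genes stood above it and lin-37 below it. At lin-52 and dpl-1 the strongest regions had signals of 36.1 and 27.9, below the weakest thresholded region, which had 45.8. The next region in the list, just outside the threshold, also had 45.8.

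The regions of lin-53 and lin-9 stood apart from the rest of the DREAM genes. They were 48.9 and 38.7 times as strong as the median thresholded region and held 1.07% and 0.846% of all signal summed over thresholded regions. One of the 20 strongest thresholded summits lay in the promoter window of 2 of the 8 DREAM genes, these same 2, and of 0.175% of all genes.

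**Figure D1:**
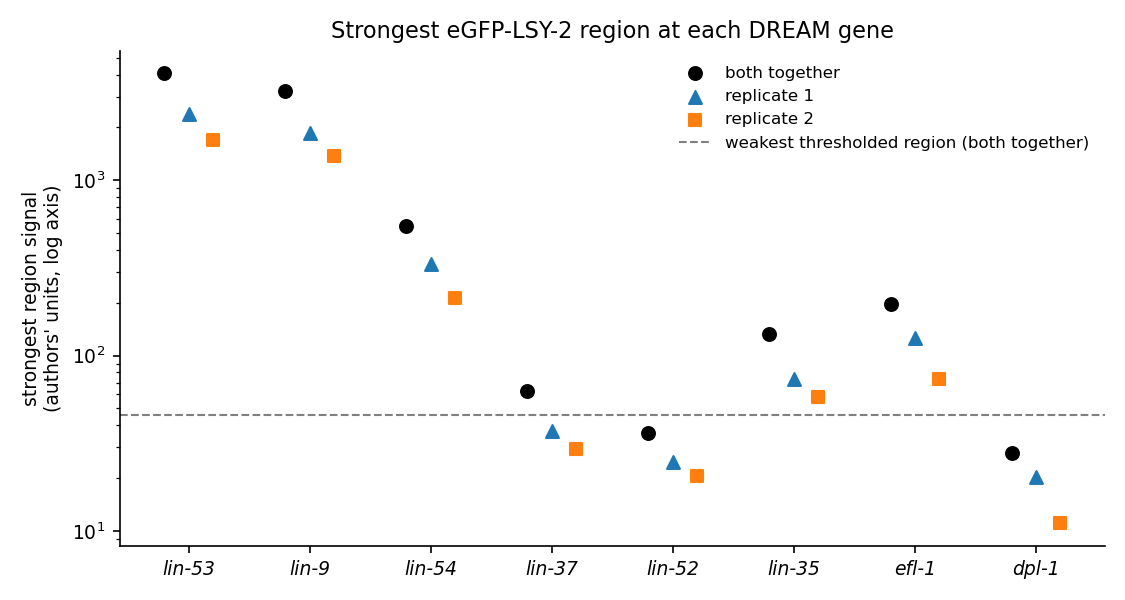
Signal of the strongest region in the locus window of each DREAM gene (y axis, authors' units, log axis) in the list for both replicates together, in replicate 1 and in replicate 2; the dashed line marks the weakest thresholded region (45.8 in the list for both together) and does not apply to the replicate lists. In each of the 3 lists lin-53 and lin-9 are highest and lin-52 and dpl-1 lowest.

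The bases around 4 of the summits are given because those of lin-9, lin-54 and efl-1 share a word of 9 bases close to the summit, and because those of lin-37 show a weak region without that word. CHR forms, the sites of LIN-54, occur in each of the 4, and more lie outside the printed bases at lin-9 and efl-1. Within 150 bp of the summit 59.8% of all thresholded regions hold a CHR form, and the lin-35 region holds none. The printed bases run 5′ to 3′ on the strand of the DREAM gene and come from the RefSeq copy of WBcel235. They reach 100 bases to each side of the summit except where a neighbouring gene lies closer. Capitals mark the E2F forms and CHR forms defined with the motif counts and the shared word GCGCTCCAC, each on either strand. The summit is base 101 of the lin-9 and efl-1 sequences, base 26 of the lin-54 sequence and base 82 of the lin-37 sequence.
lin-9 (chrIII:8904187-8904387, minus strand): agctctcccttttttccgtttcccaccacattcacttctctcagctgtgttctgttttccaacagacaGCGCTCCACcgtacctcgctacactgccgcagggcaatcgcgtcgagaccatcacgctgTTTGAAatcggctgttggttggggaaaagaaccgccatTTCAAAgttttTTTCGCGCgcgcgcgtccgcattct
lin-54 (chrIV:13240652-13240777, plus strand): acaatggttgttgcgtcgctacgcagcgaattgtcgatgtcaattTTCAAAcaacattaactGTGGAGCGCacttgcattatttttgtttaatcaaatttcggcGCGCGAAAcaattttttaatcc
efl-1 (chrV:16965751-16965951, minus strand): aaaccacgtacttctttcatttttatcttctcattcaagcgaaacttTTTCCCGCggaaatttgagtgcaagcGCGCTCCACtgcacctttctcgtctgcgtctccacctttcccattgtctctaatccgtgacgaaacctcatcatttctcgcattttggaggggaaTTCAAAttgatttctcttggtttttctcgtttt
lin-37 (chrIII:7074067-7074248, minus strand): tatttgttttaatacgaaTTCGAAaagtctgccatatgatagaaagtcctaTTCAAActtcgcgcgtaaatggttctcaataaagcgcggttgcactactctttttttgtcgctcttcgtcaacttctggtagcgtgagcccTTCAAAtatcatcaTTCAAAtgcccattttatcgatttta

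Of the MuvB core, lin-9 (WBGene00002998, chromosome III, 8900237 to 8904131, minus strand) encodes a conserved subunit of that core. Its main region ran from 8904075 to 8904497, with the summit at 8904287, in intergenic sequence 156 bp upstream of its 5′ end. The signal was 3225 for both replicates together, 1860 in replicate 1 and 1373 in replicate 2, and the region ranked 11 in every one of the 3 lists. No other protein-coding gene had this summit in its promoter window: the next gene upstream, unc-32, which encodes a subunit of the vacuolar proton pump, starts on the opposite strand after a gap of 1483 bp. Of the DREAM genes with a promoter summit, lin-9 was the one whose summit lay in no other gene's promoter window.

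A second thresholded region of lin-9 was much weaker and lay nearer to unc-32. It ran from 8905228 to 8905591, with the summit 1279 bp upstream of lin-9 and 205 bp upstream of unc-32. Its signal was 65.9 for both replicates together (rank 1441), 46.5 in replicate 1 (rank 1168) and 22.3 in replicate 2 (rank 1975). Replicate 1 placed it above the lin-37 region and replicate 2 below it, so the order of these 2 weak regions was not settled between replicates. Inside lin-9 itself the list for both together had an intronic region 2856 bp downstream of the 5′ end at rank 2997, which did not pass the threshold.

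The gene lin-54 (WBGene00003037, chromosome IV, 13241044 to 13243401, plus strand) encodes the core subunit that binds DNA through cysteine-rich CXC domains. Its region ran from 13240540 to 13240824, with the summit at 13240677, 367 bp upstream of lin-54. The signal was 548 for both replicates together, 333 in replicate 1 and 213 in replicate 2, at ranks 104, 96 and 107. The summit lay only 26 bp upstream of rpl-12, a gene for a protein of the large ribosomal subunit on the opposite strand, and the gap between these genes is 392 bp. Which of these promoters the region serves was not tested. Further upstream, 2 regions below the threshold lay 1064 and 1608 bp from the 5′ end of lin-54, with signals of 36.6 and 35.3.

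The gene lin-37 (WBGene00003022, chromosome III, 7070890 to 7072552, minus strand) encodes a core subunit that in mammals is needed for repression by the complex. Its only thresholded region, from 7073985 to 7074348, had the summit at 7074167, which is 1615 bp upstream of lin-37 but 316 bp upstream of ZK418.5. That gene lies on the same strand just upstream of lin-37, from 7072613 to 7073851, with a gap of 60 bp between them. Genes so close on 1 strand are often transcribed together in worms, and whether these are was not tested. The signal was 62.9 for both replicates together, 37.2 in replicate 1 and 29.2 in replicate 2, at ranks 1532, 1554 and 1398. Rank 1532 lies in the weaker part of the 2182 thresholded regions, while the replicate ranks are places in lists of 30000 regions. Closer to lin-37, a weak region 244 bp upstream was listed in replicate 2 alone, in the 3′ untranslated part of ZK418.5, with a signal of 8.48 at rank 15780.

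The gene lin-52 (WBGene00003035, chromosome III, 9824083 to 9824750, minus strand) encodes the small core subunit that joins the core to the pocket protein. It had no thresholded summit in its window. For both replicates together its strongest region had a signal of 36.1 at rank 2986, which is 0.787 of the weakest thresholded signal. The −log10 q-value was 2.09, where the highest of the list, 3.63, was reached also by the weak lin-37 region. The summit of this lin-52 region lay 48 bp downstream of the 5′ end, in a coding exon. The replicates placed their strongest region elsewhere: replicate 1 had it 680 bp upstream, at the 5′ end of the neighbouring gene ZK632.9, with a signal of 24.6 at rank 2612. Replicate 2 had it 1338 bp upstream, with a signal of 20.6 at rank 2217. Replicate 1 also listed a region 43 bp downstream of the 5′ end (signal 22.6, rank 3018), but in replicate 2 the closest listed summit lay 370 bp upstream. Thus no position at lin-52 was strongest in both replicates. Near the strongest region of replicate 2, replicate 1 listed a weaker one 1361 bp upstream (signal 13.8, rank 8860). The list for both together had one 1350 bp upstream (signal 34.3, rank 3255).

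Next to lin-52, ZK632.9 lies upstream on the same strand after a gap of 126 bp. The nearest thresholded summit was outside the window, 3036 bp upstream of lin-52 and 64 bp upstream of ZK632.10, with a signal of 228 at rank 297. A window reaching 5 kb upstream counts this summit for lin-52 and raises the DREAM genes with one to 7 of 8, beside 19.4% of all genes.

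The strongest region among the DREAM genes lay upstream of lin-53 (WBGene00003036, chromosome I, 9618196 to 9619760, minus strand). LIN-53 is a histone-binding WD40 protein that is shared between DREAM and other chromatin complexes. The region ran from 9619783 to 9620239, with the summit at 9620005, 245 bp upstream of lin-53. The signal was 4074 for both replicates together, 2401 in replicate 1 and 1699 in replicate 2, at ranks 10, 10 and 9. The summit lay 222 bp upstream of nra-2, whose product acts in the assembly of nicotinic acetylcholine receptors, in a gap of 466 bp between 2 genes on opposite strands, and it was thus slightly nearer to nra-2. The same summit was 1898 bp upstream of rba-1, the paralogue that follows lin-53, and fell in its locus window too.

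The pocket protein gene lin-35 (WBGene00003020, chromosome I, 5807709 to 5815637, plus strand) encodes the only retinoblastoma family protein of the worm. Its region ran from 5807338 to 5807701, with the summit at 5807520, 189 bp upstream of lin-35 and 229 bp upstream of vps-51, a gene for a subunit of a vesicle tethering complex. These genes lie on opposite strands with a gap of 417 bp, and lin-35 was the nearer. The signal was 132 for both replicates together, 73.9 in replicate 1 and 57.6 in replicate 2, at ranks 599, 653 and 575. It stood 1.59 times above the median thresholded region, the least of the 5 genes with a promoter summit. Within the body of lin-35, 2 further regions of the list for both together had signals of 17.8 and 15.3, near the median of 17.2 over the whole list of 30000 regions.

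The E2F gene efl-1 (WBGene00001161, chromosome V, 16958590 to 16965675, minus strand) encodes the DNA-binding partner of DPL-1. Its region, from 16965758 to 16965907, had the summit at 16965851, 176 bp upstream of efl-1. The signal was 197 for both replicates together, 125 in replicate 1 and 73.6 in replicate 2, at ranks 358, 324 and 413. The F-box gene fbxa-90, on the opposite strand across a gap of 1138 bp, had the summit 963 bp upstream of it, just within its promoter window. Of the 2 genes, efl-1 was by far the nearer.

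The DP gene dpl-1 (WBGene00001061, chromosome II, 9169910 to 9172565, plus strand) had no thresholded summit in its window. Its strongest region had the lowest signal of the 8. A region from 9169502 to 9169865, with the summit 226 bp upstream of dpl-1, had a signal of 27.9 at rank 4772 for both replicates together, with a −log10 q-value of 0.979. It had 20.2 in replicate 1 (rank 3694) and 11.1 in replicate 2 (rank 8040, with the summit 280 bp upstream). Both replicates therefore listed a region in the promoter window, at 0.609 of the weakest thresholded signal in the list for both together. In lists that mix peaks with background, a region this weak is not by itself evidence of binding. The summit falls in an exon of T23G7.2, which is annotated on the opposite strand across the whole of dpl-1, from 9167933 to 9172949. The nearest thresholded summit lay 7400 bp downstream of the 5′ end of dpl-1, near pir-1, with a signal of 54.6.

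**Figure D2:**
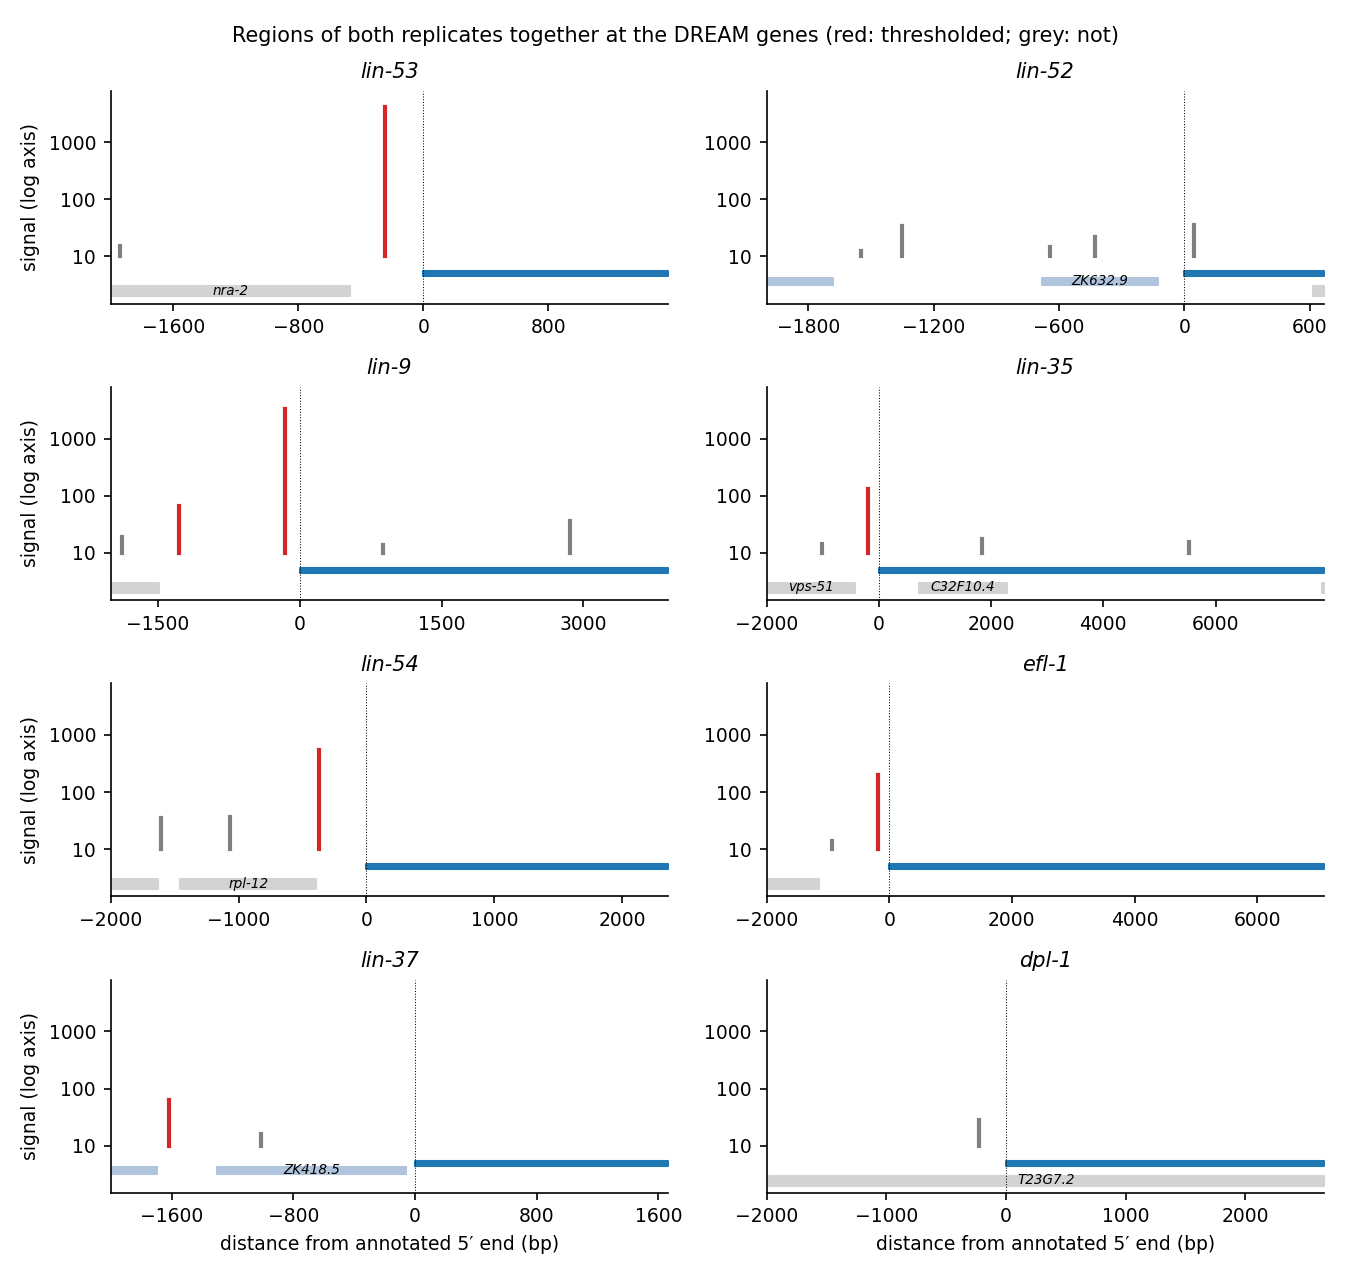
Regions of the list for both replicates together in the locus window of each DREAM gene, drawn as bars at their summits (x axis, distance from the annotated 5′ end in bp, negative upstream; y axis, signal, log axis), red for thresholded and grey for not; the blue bar is the DREAM gene, light blue other genes on its strand and light grey those on the opposite strand. The red bars of lin-53, lin-9, lin-54, lin-35 and efl-1 sit 156 to 367 bp upstream of the 5′ end, with a second, weaker one at lin-9, while lin-37 has its red bar 1615 bp upstream and lin-52 and dpl-1 have none.

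The full lists, which hold 30000 regions each and mix peaks with background, had more summits per kb upstream of the DREAM genes than upstream of all genes. A summit in these lists is not by itself evidence of binding: the median −log10 q-value over the list for both together was 0.187. The 7 thresholded summits are among those of the list for both together. Each replicate list also has a summit in each of those 7 regions, so the counts overlap. In the list for both together 8 of the 8 DREAM genes had at least 1 summit in the locus window, as did 63.0% of all genes. That list had 19 summits in the 16 kb upstream of the DREAM genes (1.19 per kb, and 0.353 per kb for all genes) and 5 in their 27.8 kb of gene body (0.180 per kb, and 0.281 per kb for all genes). Replicate 1 had 16 upstream (1 per kb, and 0.346 for all genes) and 5 in the bodies (0.180 per kb, and 0.284 for all genes). Replicate 2 had 18 upstream (1.125 per kb, and 0.359 for all genes) and 8 in the bodies. In replicate 2 the gene bodies did not have fewer than elsewhere, with 0.288 per kb in the DREAM genes and 0.284 per kb for all genes. Thresholded summits numbered 7 upstream and 0 in the bodies, or 0.438 per kb upstream beside 0.0639 per kb for all genes. For the bodies of all genes it was 0.00843 per kb, so low that 0 in 27.8 kb says little. The number of summits differed by gene: lin-9 and lin-52 had 5 each in the list for both together, and dpl-1 had 1.

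Where the summits lay was much as at other bound genes. For the 5 DREAM genes with a promoter summit it was 156 to 367 bp upstream of the 5′ end, with a median of 189 bp. Over the 1968 genes with a thresholded promoter summit the median was 225 bp and the middle 50% ran between 129 and 388 bp. The annotated 5′ end of many worm genes is a trans-splice site and not the start of transcription, so these distances are to the annotation. The strength was less alike: the median signal of the strongest promoter region was 548 for the 5 DREAM genes and 99.8 for the 1968 genes. That median of 5 is the signal of the lin-54 region alone, whose summit lay nearer to rpl-12. The summits with the DREAM gene as the nearest had signals of 3225 (lin-9), 197 (efl-1) and 132 (lin-35). Of the 5 summits, 4 (80%) were shared with the promoter window of another protein-coding gene, beside 57.9% of the 1968, and 3 (60%) had the DREAM gene as the nearest, beside 69.4%.

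**Figure D3:**
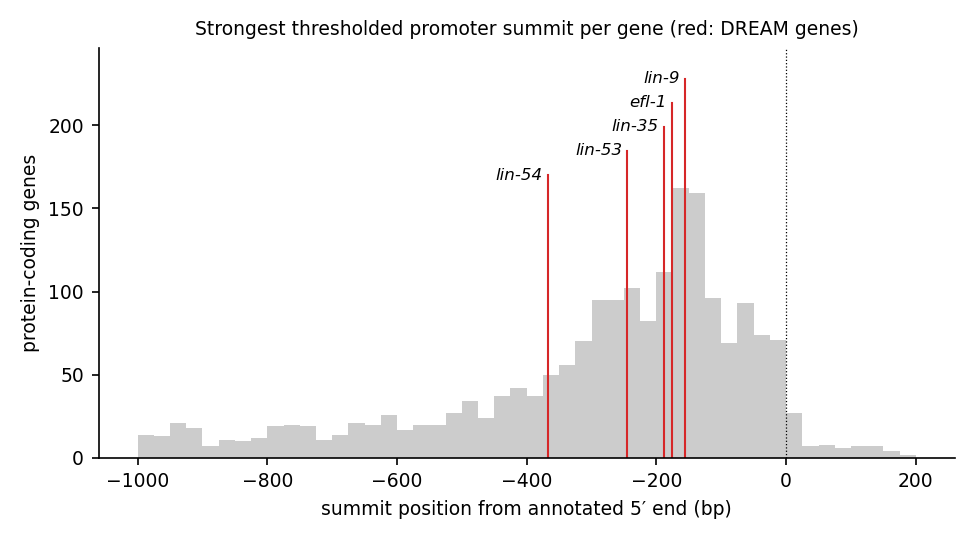
Histogram of the position of the strongest thresholded promoter summit of 1968 genes (x axis, bp from the annotated 5′ end, negative upstream; y axis, number of genes), with red lines at the 5 DREAM genes that have one (line heights carry no value). The DREAM summits lie between 156 and 367 bp upstream, on both sides of the median of 225 bp over all these genes.

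The replicates gave the same order of DREAM genes by their strongest thresholded region: lin-53, lin-9, lin-54, efl-1, lin-35 and lin-37. Over the 7 thresholded regions of the DREAM genes the signal of replicate 1 was 1.27 to 2.09 times that of replicate 2, with a median of 1.41, and over the 2154 thresholded regions with a summit in both replicates the median was 1.43. As the lists are not scaled to each other, the ratio is read only against that median, and the DREAM regions lay within the range of the others (0.770 to 2.75 between the 5th and 95th percentiles). The widest ratio, 2.09, was that of the second lin-9 region. The summits of the replicates were 3 to 75 bp apart at the DREAM regions, with a median of 17 bp, and 20 bp apart at the median of all thresholded regions. At the strong regions the positions were close, with 3 bp at lin-9, 7 bp at lin-54 and 13 bp at lin-53, and the largest shift was again at the second lin-9 region. The lin-37 and lin-35 regions had shifts of 47 and 43 bp.

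**Figure D4:**
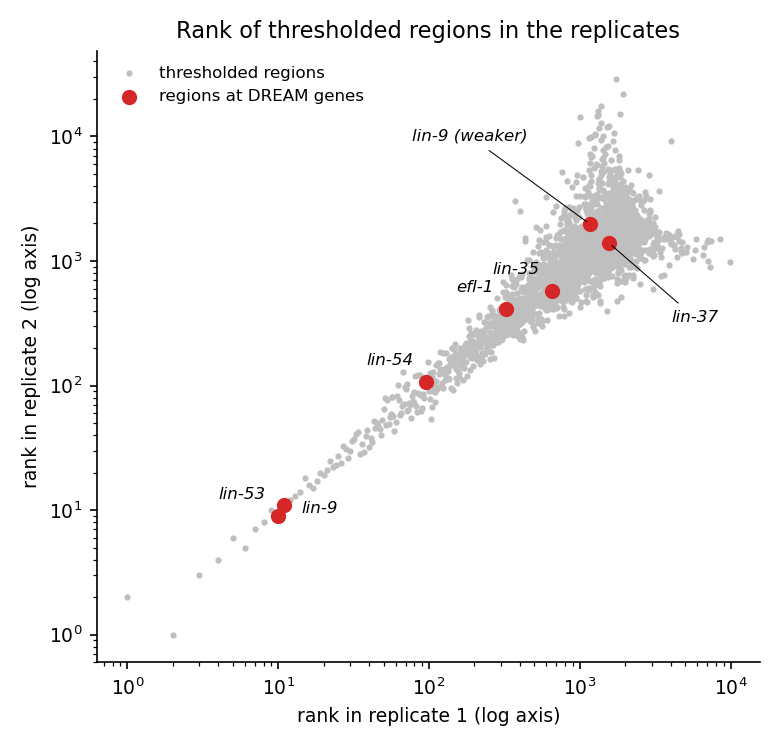
Rank of each thresholded region in replicate 1 (x axis) against its rank in replicate 2 (y axis), on log axes, for the 2154 regions with a summit in both replicates; the 7 regions of the DREAM genes are in red. The red points of lin-53 and lin-9 are at ranks 9 to 11 in both replicates, and the second lin-9 region is at rank 1168 in replicate 1 and 1975 in replicate 2.

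Matches to the DNA elements of the complex itself were counted near the summits. E2F forms were taken as TTTCCCGC, TTTCGCGC, TTTGCCGC and TTTGGCGC, and CHR forms, the sites of LIN-54, as TTTGAA and TTCGAA, on both strands; TTCGAA and its reverse complement are the same letters. An E2F form lay wholly within 150 bp of the summit in 4 of the 7 DREAM regions, beside 9.81% of the 2182 thresholded regions and 4.69% of the windows from 250 bases before to 50 after the 5′ end of all genes. It was TTTCGCGC at lin-9 and lin-54 and TTTCCCGC at lin-53 and efl-1. The matches lay to the side of the summits, centred 80 bp away at lin-9, 82 bp at lin-54, 105 bp at lin-53 and 49 bp at efl-1, and none was wholly within 50 bp. In relation to the genes they were 73 bp upstream of lin-9, 137 bp upstream of lin-53, 222 bp upstream of efl-1 and 281 bp upstream of lin-54.

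CHR forms were common in all sets of windows at this distance. They were within 150 bp of the summit in 5 of the 7 DREAM regions (lin-53, lin-54, efl-1, lin-37 and the main region of lin-9), beside 59.8% of thresholded regions and 68.9% of the windows at 5′ ends. Wholly within 50 bp they were in 4 of the 7 (lin-53, lin-54, lin-37 and the main region of lin-9), beside 22.2% of thresholded regions. The repeat GAGAGA, frequent in worm promoters, was present in 3 of the 7 (both of lin-9 and that of lin-35), beside 44.0% of thresholded regions and 21.8% of the 5′ windows. The G and C content within 150 bp of the summit varied between 31.2% at lin-37 and 47.2% at the main region of lin-9, with a median of 39.5% over all thresholded regions. A match is a description of the letters and no evidence that E2F or LIN-54 is bound.

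The word GCGCTCCAC printed in capitals at lin-9, lin-54 and efl-1 was chosen after the sequences were seen, as the longest word present within 50 bp of the summit in 3 or more of the DREAM genes. Its centre lay 28 bp from the summit at lin-9, 41 bp at lin-54 and 23 bp at efl-1. It reads forwards on the gene's strand at lin-9 and efl-1 and as the reverse complement at lin-54. Within 50 bp of all thresholded summits it occurred in 44 of 2182 regions (2.02%). By rank it was in 2% of regions 1 to 100, 2.75% of those ranked 101 to 500 and 1.84% of the rest. Windows of the same 101 bases centred 300 bp to each side of the summits held it in 2 of 4364 cases (0.0458%). These counts are over all regions, so the word was more frequent at eGFP-LSY-2 summits than to their sides, though most summits lacked it. The base composition of the summit and side windows was not compared. The 3 DREAM regions are among the 44.

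Its first 6 bases are the reverse complement of GAGCGC, and this shorter word, also chosen after the values were seen, was within 50 bp of the summit in 5 of the 7 DREAM regions. These were both regions of lin-9 and those of lin-35, lin-54 and efl-1, and no other of the 2080 possible 6-base words was in as many regions. Counted by gene, the CHR form TTTGAA was in as many (lin-37, lin-53, lin-54 and lin-9). GAGCGC was present in 275 of the 2182 thresholded regions (12.6%), and in 83 of the 4364 side windows (1.90%). Its share differed little with strength: 13 of the 100 strongest regions, 15.8% of those ranked 101 to 500 and 11.8% of the rest held it. The strongest DREAM region, that of lin-53, did not hold it, nor did the lin-37 region.

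Genes close to the DREAM genes in rank were of many kinds. The strongest promoter region next above that of lin-53 was at Y25C1A.8 (rank 9, signal 4164), and the next below that of lin-9 was between cct-1, a chaperonin subunit gene, and mig-5, a Dishevelled gene (rank 12, signal 2975). The lin-54 region stood between those of sor-1 (rank 100, signal 551) and of ddp-1 with ttc-7 (rank 105, signal 546). Next to efl-1 were aps-3 with rpl-17 (rank 356, signal 197) and the kinetochore gene knl-3 (rank 360, signal 196). Next to lin-35 were ZK795.2 with ZK795.3 (rank 598) and Y53G8AM.8 (rank 601), each with a signal of 132.

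Other genes of the synMuv pathways had no region as strong as those of lin-53, lin-9 and lin-54. Of 11 further class B and related genes, 4 (36.4%) had a thresholded summit in the locus window, each of them also in the promoter window, beside 14.0% and 9.85% of all genes. These were smo-1, the SUMO gene (signal 353, rank 183, 511 bp upstream), lin-36 (148, rank 513, 256 bp upstream), ubc-9, the SUMO-conjugating enzyme gene (99.9, rank 874, 227 bp upstream), and the zinc finger gene lin-13 (72.2, rank 1298, 824 bp upstream). The heterochromatin genes hpl-1, hpl-2, met-2, lin-61 and lin-65 had none, nor had lin-15B and gei-8. Of the 4 class A genes, lin-38 alone had one (signal 62.7, rank 1536, 233 bp upstream), and lin-8, lin-56 and lin-15A had none.

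A further list took genes of the NuRD, PRC2-like, CAF-1 and histone acetyltransferase complexes. Whether each of these complexes holds LIN-53 or a protein of its class in worms was not tested. Of their 13 genes found by name, 6 (46.2%) had a thresholded summit in the locus window, beside 14.0% of all genes, and 5 (38.5%) had one in the promoter window, beside 9.85%. Apart from rba-1, which shares the lin-53 region, the strongest were hat-1, a histone acetyltransferase gene (signal 339, rank 193), and mes-2, which encodes the H3K27 methyltransferase (signal 186, rank 387). The others were mep-1 (79.7 at 1905 bp upstream, a summit nearest to gfl-1, and 60.6 at 120 bp upstream), chaf-2 (60.5) and dcp-66 (59.9). The NuRD genes let-418, chd-3, lin-40 and hda-1 had none, and neither had mes-3, mes-6 or chaf-1.

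Of 8 listed cell cycle genes, 2 (25%) had a thresholded summit in the locus window, beside 14.0% of all genes. In the promoter window 1 (12.5%) had one, which is close to the 9.85% of all genes. The cyclin E gene cye-1 had a region in an intron, 972 bp downstream of its 5′ end (signal 139, rank 555), and one 593 bp upstream, nearest to pqn-21 (signal 99.7, rank 881). The region counted for fzr-1, a gene for an activator of the anaphase-promoting complex, lay 1771 bp upstream and was nearest to sqv-8 (signal 64.6, rank 1476). The genes cyd-1 and cdk-4 for cyclin D and its kinase, cdk-2, the inhibitor genes cki-1 and cki-2, and cdc-25.1 had none. The other E2F family genes efl-2 and efl-3 had none (0 of 2), so among the E2F and DP genes listed efl-1 alone passed the threshold. None of 8 germline genes known to be held down in the soma by class B genes had a thresholded summit (0 of 8: pgl-1, pgl-3, glh-1, glh-2, glh-3, glh-4, mex-5 and nos-2). With lists of 2 to 13 genes and 14.0% of all genes with a thresholded locus summit, the small counts are a description and were not tested against each other.

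**Figure D5:**
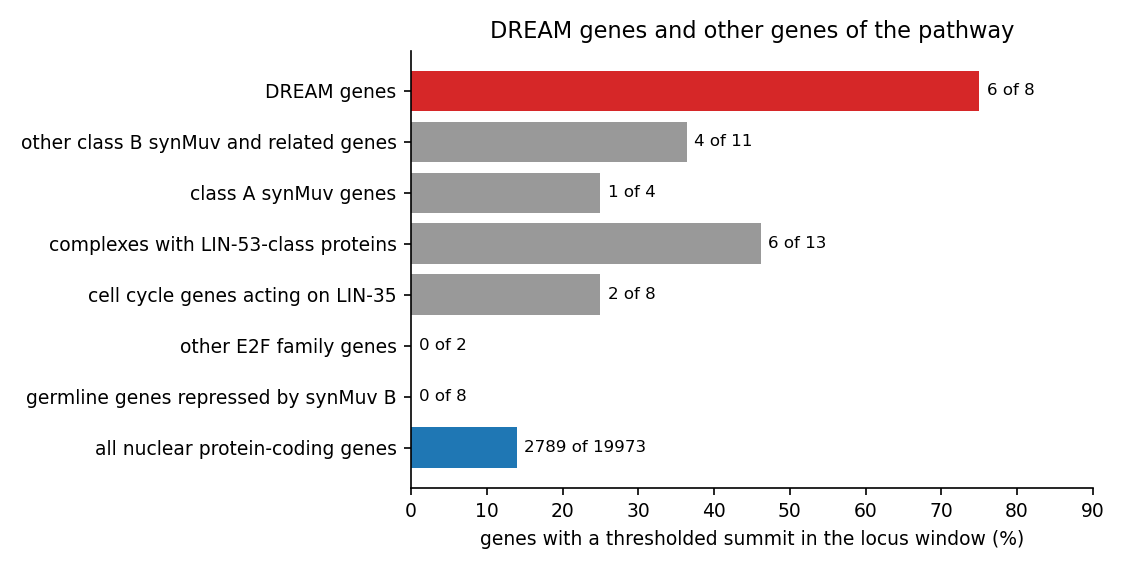
Percentage of genes with a thresholded summit in the locus window (x axis, %, from 0) for the DREAM genes, the other lists and all nuclear protein-coding genes, with the number of genes beside each bar. The DREAM genes have 6 of 8, and the lists of germline genes and of other E2F genes have 0. The names of the cell cycle list and of the list of complexes with LIN-53-class proteins were not checked for each gene.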

How the data were processed

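The study deposited region lists for eGFP-LSY-2 ChIP-seq in L2 larvae, for each of 2 biological replicates and for both together. Per the file headers (the deposited file lists), the authors called peaks with background as input for IDR and thresholded them by IDR, on ce10 and ce11. Only the ce11 lists were used here. Details of alignment and peak calling were not given in the sources used here. A control library was not analysed here. The deposited signal (seventh column) is the caller's value for each region, and the authors' −log10 q-value reached at most 3.63 in the list for both together. The deposited lists hold no read counts, so depth is unknown and no counting interval is given.

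Genes were taken from Ensembl release 115 on WBcel235, and sequence from the RefSeq copy of that assembly. Summits were assigned to every gene whose window held them, with Python 3.11.15, numpy 2.4.6, pandas 2.3.3 and matplotlib 3.10.9, and the assignment was tested on simulated positions. Regions were ranked by signal within each list. In each replicate the strongest summit inside a thresholded region was taken. Genes named beside the DREAM genes are those that share a thresholded summit, those next in rank and those of the other lists with a thresholded summit. Alternatives were other windows, an overlap of at least 1 bp, the upper 50% of thresholded regions, nearest genes only, all annotated transcript 5′ ends, each replicate alone and motif distances of 50 and 250 bp. The DREAM genes, the other gene lists and the motifs were chosen with earlier results of these data known. The gene egr-1 was not found by name.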

Additional observations from a re-analysis of the deposited data

How the results depend on the processing

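Of the alternative values, 29 stayed within the limits set and 4 moved. When summits counted for 1 gene each, that of the nearest 5′ end, the DREAM genes with a thresholded summit numbered 3 in the locus window and 3 in the promoter window (6.86% of all genes for the promoter window). With motif matches wholly within 50 bp of the summit, 0 of the 7 regions held an E2F form and 1 held GAGAGA, beside 4.90% and 25.4% of thresholded regions. The locus count was 6 without replicate 1 (13.7% of all genes) and 6 without replicate 2 (13.7%), and the promoter count was 5 in each case (9.62% of all genes both times). The IDR limit compares replicates and was not set again for either replicate alone. In the upper 50% of thresholded regions both counts were 5, beside 8.15% of all genes for the locus window and 5.90% for the promoter window. A locus window from 1 kb upstream gave 5 (11.5% of all genes) and one from 5 kb upstream gave 7 (19.4%). No paired analysis was possible because the study has 1 group. Limits are the unknown depth, signals that are not scaled between lists, annotated 5′ ends in place of transcription starts, and summits that lie between 2 genes.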
